A study of Mus musculus with 32 samples.

Results

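Mecom, Hlf, Meis1, Prdm16, Mllt3, Hoxa9 and Erg are 7 genes known for keeping blood stem cells self-renewing. They were taken by gene name from a deposited count table of 30644 mouse genes. The rule uses names and no measured value, but the 7 names were chosen with earlier results of these data known. All 7 had a row and passed the filter on low counts, which left 18676 genes tested. Mllt3 is counted among these regulators although its protein is a chromatin reader, not a DNA-binding transcription factor.

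The RNA came from multipotent progenitors (MPP) sorted from the bone marrow of C57BL/6 mice as 4 subsets, MPP1 to MPP4. The mice were wild type (WT) or carried 1 copy (+/1013) or 2 copies (1013/1013) of the 1013 allele of Cxcr4, which removes the end of the intracellular tail of CXCR4, a receptor for the chemokine CXCL12, like mutations found in the immune deficiency WHIM syndrome. The study's title asks how CXCR4 directs progenitors towards lymphoid and myeloid fates, and the ages and sexes of the mice are not given in the sources used here. Each subset had 3 WT, 3 +/1013 and 2 1013/1013 libraries, 32 in all, each made from a pool of 3000 cells and 350 to 1000 pg of RNA with 12 cycles of cDNA amplification. The allele is a germline change that every cell of a mutant mouse carries. Nothing in the labels ties a library to its own animal, so p-values measure the spread between these libraries, which may be technical.

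Blood stem cells and their first descendants are held in an uncommitted state by a small set of regulators that bind many of the same enhancers. MPP1 cells stand closest to the stem cell, MPP2 and MPP3 lean towards megakaryocyte-erythroid and myeloid cells, and MPP4 cells, which carry the receptor FLT3, lean towards lymphocytes. Stem cell regulators are known to be switched down as progenitors commit.

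Libraries held 13016038 to 37050983 counts. Levels below are CPM, a gene's counts scaled to a common library size, after TMM scaling of the library sizes. Among 6 sorting genes, Flt3 and Slamf1 followed the labels on average between MPP4 and MPP1. Flt3 averaged 418 CPM (SD 152, n = 8) in MPP4 and 24.2 (SD 13.6, n = 8) in MPP1, and Slamf1, the CD150 gene, averaged 37.5 CPM in MPP1 and 0.283 in MPP4. Single libraries were less clear: Slamf1 ran from 0.0405 to 44.5 CPM in MPP2. Cd48 averaged 60.2 CPM in MPP1 and 470 in MPP2, but ran from 11.2 to 226 CPM in MPP1 and from 121 to 862 in MPP2, which overlap. Some libraries stood apart. Of the 8 libraries of MPP2, MPP3 and MPP4 whose library number is a multiple of 3, 7 had summed neutrophil markers of 886 to 3882 CPM, against 0.579 to 70.3 CPM in the 24 others. The remaining member of that set, MPP4 1013/1013 replicate 2, had 33.8 CPM of neutrophil markers. Summed erythroid markers were 71.0 to 3862 CPM in these 8 libraries and 18.04 to 466 CPM in the others, with at most 69.6 CPM in MPP1. The number of genes with at least 5 counts was lowest in MPP2 +/1013 replicate 3 (11612) and MPP4 1013/1013 replicate 2 (11693), and reached 15136 in MPP4 +/1013 replicate 2. MPP4 1013/1013 replicate 2 was also 1 of 5 libraries numbered 46 or above. The others were MPP1 WT replicate 3, MPP1 +/1013 replicate 3, MPP1 1013/1013 replicate 2 and MPP3 1013/1013 replicate 2. For each call of a member below, the text therefore says where leaving out the 8 libraries of that multiple-of-3 set ended it. For single genes outside the 7 members no such values were taken.

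Levels can be compared between genes only per length, here CPM per kilobase of the deposited median transcript length. On that scale Hlf (105.6, SD 30.5, n = 8), Hoxa9 (75.0, SD 21.8) and Meis1 (69.2, SD 15.0) led in MPP1, followed by Mllt3 (36.7, SD 15.2), Mecom (12.7, SD 6.54) and Erg (3.89, SD 1.86). Prdm16 was lowest, at 0.447 CPM per kilobase (SD 0.330). In MPP4 Hoxa9 led at 83.2 (SD 16.4), above Hlf (56.3, SD 21.4) and Meis1 (28.5, SD 11.7), and Mllt3 stood at 3.65 (SD 2.88).

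**Figure D1:**
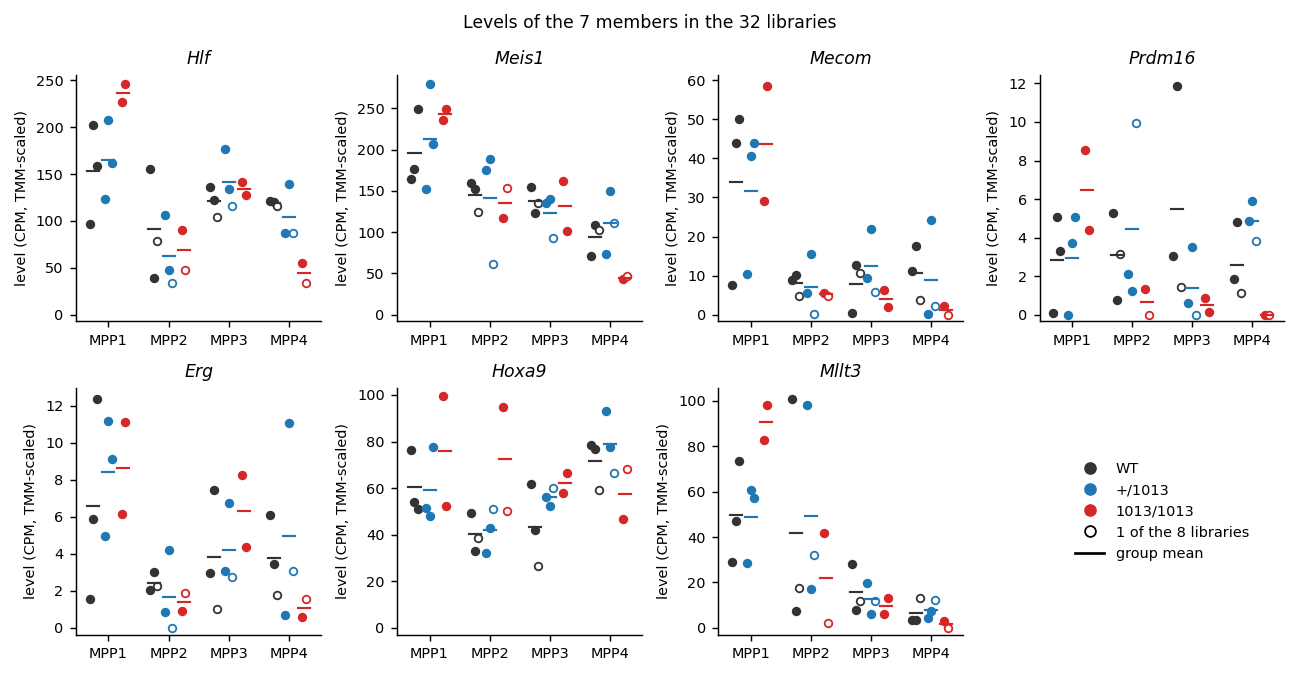
TMM-scaled CPM of each member (y axis, linear, 1 panel per gene) in every library, by subset (x axis) and genotype (colour), with horizontal lines at group means and open circles for the 8 libraries of MPP2 to MPP4 whose number is a multiple of 3. Meis1 and Mllt3 are highest in MPP1 on average and lowest in MPP4, Hoxa9 is not, and the 2 MPP4 1013/1013 libraries hold 43.4 and 46.2 CPM of Meis1 and no Prdm16 count.

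The subsets were compared pair by pair, each as the mean over the 3 genotypes. 4 of the 7 members were lower in MPP4 than in MPP1 (Meis1, Mllt3, Hlf and Mecom) and none was higher, where 7.12% of all genes tested were lower. The median log2 difference of the 7 was -1.52, beside -0.15 over all genes tested. 1 member, Hlf, was lower in MPP2 than in MPP1 (1.72% of genes lower). No member passed between MPP3 and MPP1 in edgeR (3.11% of genes passed in either direction), although 3 had an unadjusted p under 0.05, as did 3573 of 18676 genes. DESeq2 and limma-voom each called 3 members there, among 1852 and 1562 genes called. Meis1 and Mllt3 were lower in MPP4 than in MPP2 (2% of genes lower). None passed between MPP3 and MPP2 (0.798% of genes) or between MPP4 and MPP3 (0.969% of genes) in edgeR. At an unadjusted p under 0.05 there were 2 and 3 members in those comparisons, beside 2157 and 2108 genes. DESeq2 called 1 member in each, among 1039 and 1045 genes, and limma-voom called 1 and 0, among 411 and 505 genes. The 3 comparisons with MPP1 share its 8 libraries.

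MEIS1 is a homeodomain protein of the TALE class that binds DNA together with HOX proteins, HOXA9 among them. Meis1 lies on the minus strand of chromosome 11 (chr11:18879817-19018985, mm10). Its level ran from 152 to 279 CPM in MPP1, with a median of 222, and from 43.4 to 149.5 CPM in MPP4, with a median of 87.8. MPP2 (61.3 to 188, median 153) and MPP3 (92.9 to 162, median 136) lay between. All MPP4 libraries were below all MPP1 libraries for Meis1, a separation not counted over all genes. Meis1 was 2.79-fold lower in MPP4 than in MPP1 (log2 difference -1.48, SE 0.21, edgeR adjusted p = 4.37e-05). The difference from MPP2 was 1.81-fold (log2 -0.86, SE 0.20, adjusted p = 0.0151), which passed in 31 of 32 fits with a library left out and missed without MPP4 1013/1013 replicate 2 (adjusted p = 0.0522). Against MPP1, Meis1 had log2 differences of -0.62 in MPP2 (SE 0.20, adjusted p = 0.0684) and -0.73 in MPP3 (SE 0.20, adjusted p = 0.0511). Both passed without MPP1 +/1013 replicate 1 (adjusted p = 0.0382 and 0.0277). In bulk RNA, fewer cells that carry a transcript and less of it per cell cannot be told apart.

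HOXA9, the partner of MEIS1 on DNA, is a homeodomain protein that drives progenitor expansion. Hoxa9 (chr6:52223100-52231089) had 48.1 to 99.4 CPM in MPP1 (median 53.3) and 46.9 to 93.0 CPM in MPP4 (median 72.4), so these subsets overlapped nearly throughout. The lowest median was in MPP2, at 46.1 CPM. Its log2 difference between MPP4 and MPP1 was 0.09 (SE 0.20, adjusted p = 0.914) and that between MPP4 and MPP2 was 0.47 (SE 0.20, adjusted p = 0.229). With the 1013/1013 libraries left out of the mean, an alternative added after seeing the data, Hoxa9 was higher in MPP4 than in MPP2 (log2 0.87, adjusted p = 0.0424). Hoxa9 alone of the 7 had a fitted value between MPP4 and MPP1 that was not negative.

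HLF is a leucine-zipper protein of the PAR family and one of the most selective marks of stem cells in blood. Hlf (chr11:90336536-90390895) ran from 97.0 to 246 CPM in MPP1 (median 182), from 34.2 to 155 in MPP2 (median 63.1), from 104 to 176 in MPP3 (median 131) and from 34.2 to 139 in MPP4 (median 101.5). MPP2, not MPP4, held the lowest median of Hlf. Hlf fell 2.47-fold in MPP2 against MPP1 (log2 -1.31, SE 0.26, edgeR adjusted p = 0.00554) and 2.2-fold in MPP4 (log2 -1.14, SE 0.26, adjusted p = 0.00487). The difference of -0.45 in MPP3 did not pass (SE 0.26, adjusted p = 0.36). Within MPP2, Hlf was highest in replicate 1 of each genotype, at 155, 106 and 90.3 CPM, against 34.2 to 78.3 CPM in the other 5 libraries. Leaving out the 8 libraries ended both calls of Hlf (adjusted p = 0.0516 in MPP2 and 0.0563 in MPP4), with log2 differences of -1.05 and -1.0.

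MECOM (also EVI1 or PRDM3) and PRDM16 are related zinc-finger proteins with a PR domain, and both are needed for stem cell maintenance. Mecom (chr3:29951296-30548008) and Prdm16 (chr4:154316125-154636873) lie on minus strands. Their RefSeq promoter windows (GRCm38.p6, 250 bases before the start and 50 after, printed 5′ to 3′ in the gene's direction) are shown because they share an unbroken run of 24 bases, in capitals. The Mecom window is chr3:30509710-30510009 and the Prdm16 window chr4:154636824-154637123, both minus strand.
Mecom: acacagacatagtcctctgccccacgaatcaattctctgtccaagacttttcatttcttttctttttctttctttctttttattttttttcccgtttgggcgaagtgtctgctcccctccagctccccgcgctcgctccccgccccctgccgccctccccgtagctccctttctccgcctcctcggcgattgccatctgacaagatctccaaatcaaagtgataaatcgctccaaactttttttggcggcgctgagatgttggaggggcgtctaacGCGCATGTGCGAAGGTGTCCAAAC
Prdm16: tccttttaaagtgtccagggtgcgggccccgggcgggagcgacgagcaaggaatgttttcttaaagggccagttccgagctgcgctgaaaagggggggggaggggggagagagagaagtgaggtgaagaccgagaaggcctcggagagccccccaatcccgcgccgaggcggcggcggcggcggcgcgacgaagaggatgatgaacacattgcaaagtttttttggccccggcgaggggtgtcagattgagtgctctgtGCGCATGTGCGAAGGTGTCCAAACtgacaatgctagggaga
The run begins 27 bases into the Mecom transcript and ends with the window, and begins 10 bases into the Prdm16 transcript. Of 32851 windows searched on both strands, it occurred in these 2. Among 50 pairs of windows from different members, the next longest shared run was 14 bases and the median 8.

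The levels of these 2 genes were far apart and are given in turn. Mecom had 28.97 to 58.6 CPM in 6 of the 8 MPP1 libraries but 7.64 in MPP1 WT replicate 1 and 10.5 in MPP1 +/1013 replicate 1. These 2 MPP1 libraries also had the fewest genes with at least 5 counts in MPP1, at 13553 and 12473 against 14258 to 15019. In MPP4, Mecom ran from 0 to 24.2 CPM with a median of 2.94. Mecom was 7.65-fold lower in MPP4 than in MPP1 (log2 -2.94, SE 0.98, edgeR adjusted p = 0.0453), close to the threshold: 21 of the 32 fits with a library left out ended the call, with adjusted p of 0.0502 to 0.152, the highest without MPP4 1013/1013 replicate 2 (log2 -2.59). Without replicate 1 of that group, which leaves the library with no Mecom count, the fitted value moved to -5.57, which depends on the prior count. The call held in 6 of 11 other settings. It ended without the 8 libraries and with a term for the 5 libraries numbered 46 or above, among others. Mecom differences of -2.44 in MPP2 (SE 0.95, adjusted p = 0.118) and -2.29 in MPP3 (SE 0.94, adjusted p = 0.176) did not pass. Prdm16 was scarce in every subset, with medians from MPP1 to MPP4 of 4.04, 1.71, 1.16 and 2.81 CPM, and single libraries from 0 to 11.9 CPM. Its fitted difference between MPP4 and MPP1 (log2 -3.29, SE 1.26, adjusted p = 0.0793) depended on the 1013/1013 libraries, which are described below. Over WT and +/1013 alone it was 0.30 (adjusted p = 1).

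ERG is an ETS-family transcription factor of stem cells, megakaryocytes and endothelium. Erg (chr16:95359169-95586593) was low, with 1.56 to 12.4 CPM in MPP1 (median 7.65), 0 to 4.19 in MPP2 (median 1.95), 1.05 to 8.24 in MPP3 (median 3.72) and 0.610 to 11.1 in MPP4 (median 2.42). MPP1 WT replicate 1 was the single MPP1 library within the MPP2 range of Erg. The log2 differences from MPP1 in edgeR were -2.13 in MPP2 (SE 0.75, adjusted p = 0.088) and -1.52 in MPP4 (SE 0.74, adjusted p = 0.163). DESeq2, which called 3056 genes between MPP2 and MPP1, called the MPP2 difference (adjusted p = 0.00719). Without MPP2 +/1013 replicate 2, which held the highest MPP2 value, edgeR called it too (log2 -2.77, adjusted p = 0.0253). Summed endothelial markers were 25.7 to 204 CPM in MPP1 and 10.6 to 104 in MPP2, led by Tie1 and Emcn. Tie1 averaged 93.6 CPM in MPP1 and 3.50 in MPP4 (log2 -7.67, edgeR adjusted p = 0.000112). Cdh5 had counts in 4 of 32 libraries with at most 2.40 CPM. The highest values of the other markers were 13.9 CPM (Plvap), 11.4 (Stab2), 6.08 (Kdr), 5.18 (Flt4) and 2.08 (Sox17). The part of endothelial transcripts in the Erg values was not tested.

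MLLT3 (AF9) reads acetylated and crotonylated histones and brings the elongation machinery and the methyltransferase DOT1L to genes. It is known in human cord blood cells for sustaining stem cells in culture. Mllt3 (chr4:87769925-88033364) ran from 28.4 to 98.3 CPM in MPP1 (median 58.9), from 2.16 to 101 in MPP2 (median 24.8), from 5.93 to 28.2 in MPP3 (median 11.9) and from 0 to 13.2 in MPP4 (median 3.97). All MPP4 libraries were below all MPP1 libraries, and so were all MPP3 libraries, a separation not counted over all genes. Mllt3 fell 13.8-fold in MPP4 against MPP1 (log2 -3.78, SE 0.78, edgeR adjusted p = 0.00216). Its log2 difference of -2.27 in MPP3 did not pass in edgeR (SE 0.71, adjusted p = 0.0794) but did in DESeq2 (adjusted p = 0.00428), and in edgeR without either MPP4 1013/1013 library (adjusted p = 0.0425). Without MPP4 1013/1013 replicate 1 that group is a single library with no Mllt3 count, and the fitted MPP4 difference moved to -6.59, a value that depends on the prior count.

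MPP2 was split for Mllt3. The replicate 1 libraries held 101 CPM in WT, 98.2 in +/1013 and 41.8 in 1013/1013, and the other 5 MPP2 libraries held 2.16 to 32.1 CPM. The first 3 values lay within or above the MPP1 range of Mllt3, and of the 5 lower values 32.1 CPM alone did. Mllt3 was 8.13-fold lower in MPP4 than in MPP2 (log2 -3.02, SE 0.74, edgeR adjusted p = 0.0186). The call was lost without MPP2 WT replicate 1 (log2 -2.44, adjusted p = 0.0509), MPP2 1013/1013 replicate 1 (log2 -1.91, adjusted p = 0.186) or MPP4 1013/1013 replicate 2 (log2 -2.68, adjusted p = 0.0637). Without MPP4 1013/1013 replicate 1 the fitted value moved to -5.84, which depends on the prior count. Hlf was also highest in the same 3 MPP2 libraries. Their summed megakaryocyte markers (403, 472 and 385 CPM) lay within the MPP1 range of 314 to 523 CPM, and the other 5 MPP2 libraries held 672 to 1039 CPM. The part of this difference in the Mllt3 and Hlf values was not tested.

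Promoter windows that hold a motif match are shown for Mecom and Mllt3, which were lower in MPP4 than in MPP1, and for Hoxa9, which did not pass that test. Capitals mark TGACAG, the core bound by MEIS proteins, in the inner start of Mecom (chr3:30013155-30013454) and of Mllt3 (chr4:87806274-87806573), and AGGAAG, an ETS core, in Hoxa9 (chr6:52227321-52227620). All are on minus strands, credited to RefSeq (GRCm38.p6), and a match on the other strand reads as the reverse complement.
Mecom inner start: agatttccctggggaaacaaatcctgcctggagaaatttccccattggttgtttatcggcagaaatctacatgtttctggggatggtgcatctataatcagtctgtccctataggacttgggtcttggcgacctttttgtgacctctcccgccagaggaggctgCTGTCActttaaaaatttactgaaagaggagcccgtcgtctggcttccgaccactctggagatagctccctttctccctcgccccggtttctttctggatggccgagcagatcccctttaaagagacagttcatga
Mllt3 inner start: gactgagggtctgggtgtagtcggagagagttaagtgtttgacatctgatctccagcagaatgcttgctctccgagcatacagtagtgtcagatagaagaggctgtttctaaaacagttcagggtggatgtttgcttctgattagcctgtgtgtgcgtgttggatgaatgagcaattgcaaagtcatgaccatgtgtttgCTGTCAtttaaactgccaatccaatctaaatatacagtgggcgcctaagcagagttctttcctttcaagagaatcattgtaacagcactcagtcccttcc
Hoxa9: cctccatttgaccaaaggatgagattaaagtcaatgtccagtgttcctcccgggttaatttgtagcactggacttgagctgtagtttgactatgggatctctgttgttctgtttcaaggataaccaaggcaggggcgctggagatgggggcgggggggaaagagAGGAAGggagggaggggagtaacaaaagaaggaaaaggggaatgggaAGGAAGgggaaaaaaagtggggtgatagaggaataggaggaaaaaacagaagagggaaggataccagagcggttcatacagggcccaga
Of the 11 windows of the 7 members, 3 held TGACAG (19.2% of 32851 windows of all genes did), 2 held AGGAAG (35.4%), 1 held the GATA core AGATAA (11.2%), 2 held the PAR leucine-zipper core TTANNTAA (6% of windows) and 0 held the HOX-PBX core TGATTNAT (3.22%), counting both strands. The third Erg window held all but the last. The windows of Meis1, Hlf and Prdm16 held none of these letters. A match describes the sequence only.

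The subsets were also compared within each genotype. Within WT no member passed against MPP1 in edgeR: 0% of genes passed in MPP2, 0.102% in MPP3 and 0.76% in MPP4. Within +/1013 none passed either, where 0.00535% of genes passed in MPP2, 0.0857% in MPP3 and 0.819% in MPP4. At an unadjusted p under 0.05, WT had 0, 0 and 2 members, beside 785, 1523 and 1634 of 18676 genes, and +/1013 had 1, 1 and 2, beside 1256, 1015 and 1610 genes. DESeq2 called Meis1 in WT MPP4 (adjusted p = 0.0345) and Hlf in +/1013 MPP2 (adjusted p = 0.0384), and limma-voom called none. Over all genes DESeq2 called 753 and 317 in these 2 comparisons. Within 1013/1013, none passed in MPP2 (3.98% of genes passed) or MPP3 (0.0107%), with 2 members in each at an unadjusted p under 0.05, beside 3474 and 1887 genes. DESeq2 (adjusted p = 0.00388) and limma-voom (adjusted p = 0.0139) called Hlf in 1013/1013 MPP2, where edgeR gave a log2 difference of -1.77 (adjusted p = 0.0531). Over all genes they called 2689 and 1664 there, beside 743 in edgeR. In 1013/1013 MPP4, 4 members were lower than in MPP1 (4.36% of genes lower), namely Meis1, Hlf, Mllt3 and Prdm16.

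Every member but Hoxa9 had its lowest group mean in the 2 libraries of MPP4 1013/1013, a pattern not counted over all genes. Meis1 was 43.4 and 46.2 CPM in those 2 libraries and 236 and 249.5 CPM in MPP1 1013/1013, a 5.42-fold difference (log2 -2.44, SE 0.42, edgeR adjusted p = 0.00194). Hlf was 54.9 and 34.2 CPM against 227 and 246 CPM, a 5.3-fold difference (log2 -2.41, SE 0.53, adjusted p = 0.00716). The Hlf call did not hold without MPP4 1013/1013 replicate 2 (adjusted p = 0.114). In each of these pairs the groups were far apart, with no library between them, a separation not counted over all genes.

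Mllt3 was 3.16 and 0 CPM in MPP4 1013/1013 and 82.9 and 98.3 CPM in MPP1 1013/1013 (log2 -5.86, SE 1.64, edgeR adjusted p = 0.0275). Leaving out either MPP1 library or MPP4 replicate 2 ended that call of Mllt3 (adjusted p = 0.0781 to 0.172). Prdm16 had no count in either MPP4 1013/1013 library and 8.52 and 4.37 CPM in MPP1 1013/1013, at least 46.2-fold lower against a floor of 3 counts per library (adjusted p = 0.047). That floor covers counting error only, and single libraries of other groups also had no Prdm16 count. 24 of 32 fits with a library left out ended the Prdm16 call. It held in 3 of 10 other settings and ended, among others, with a term for the 5 libraries numbered 46 or above. Mecom was 2.22 and 0 CPM against 28.97 and 58.6 (log2 -5.31, SE 2.11, edgeR adjusted p = 0.116). DESeq2 called it (adjusted p = 0.00556), among 4290 genes called. Leaving out the 8 libraries, MPP4 1013/1013 replicate 2 among them, kept 1 of the 4 calls, Meis1 (log2 -2.49, adjusted p = 0.0139). MPP4 1013/1013 is then a single library, assumed to vary like the other groups.

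**Figure D2:**
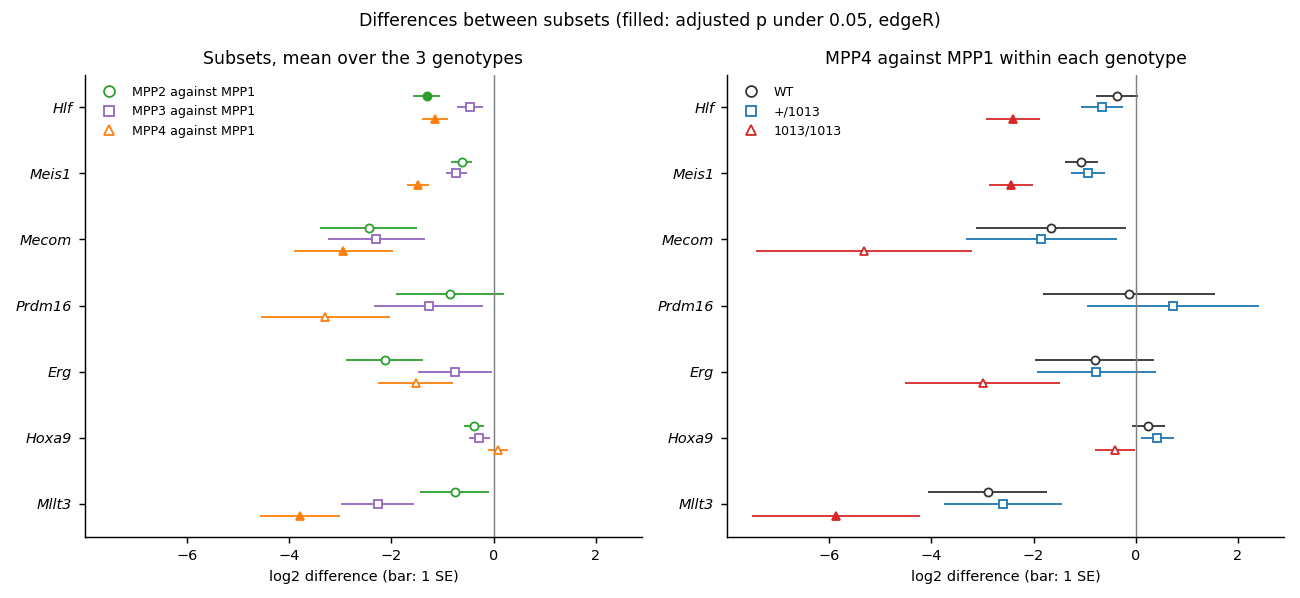
Fitted log2 differences of each member (x axis, bars 1 SE), on the left for MPP2, MPP3 and MPP4 against MPP1 as the mean over 3 genotypes and on the right for MPP4 against MPP1 within each genotype, filled where the edgeR adjusted p was under 0.05. The 1013/1013 triangles on the right lie left of the WT and +/1013 symbols for every member drawn, with Meis1 at -2.44 against -1.06 and -0.94. Prdm16 in 1013/1013 is not drawn because its MPP4 libraries held no count.

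When the mean was taken over WT and +/1013 alone, an alternative added after seeing the data, 1 of the 7 members was lower in MPP4 than in MPP1, where 1.29% of genes were lower. That member was Meis1 (log2 -1.0, adjusted p = 0.015). Mllt3 had a log2 difference of -2.75 (adjusted p = 0.0668), Mecom -1.75 (adjusted p = 0.444) and Hlf -0.51 (adjusted p = 0.417). Hlf in MPP2 also lost its call (log2 -1.07, adjusted p = 0.248). The difference between genotypes was itself tested. The MPP4-against-MPP1 difference in 1013/1013 minus that in WT was negative for all 7 members, as it was for 55.7% of all genes. It passed for none of the members in edgeR (0.0964% of genes passed), with Hlf at -2.04 (SE 0.66, adjusted p = 0.242), Mllt3 at -2.96 (SE 1.77, adjusted p = 0.486) and Meis1 at -1.38 (SE 0.52, adjusted p = 0.304). 3 members had an unadjusted p under 0.05 there, as did 2347 of 18676 genes. DESeq2 called Hlf (adjusted p = 0.0288) and Prdm16 (adjusted p = 0.0175), and limma-voom called none. Over all genes DESeq2 called 1020 there, limma-voom 75 and edgeR 18.

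The comparisons of genotypes ask whether the receptor allele changed these regulators. In edgeR no member passed in any of them, and both mutant genotypes share the WT libraries as controls. As the mean over subsets, +/1013 against WT gave log2 differences of -0.12 (Prdm16) to 0.14 (Hoxa9), where 0.0214% of genes passed. For 1013/1013 against WT, where 0.685% of genes passed, they ran from -3.39 (Prdm16, SE 1.14, adjusted p = 0.139) to 0.34 (Hoxa9, SE 0.18, adjusted p = 0.348). The Prdm16 value includes MPP4 1013/1013, which held no Prdm16 count, so its size depends on the prior count. Over all libraries Prdm16 averaged 1.90 CPM in 1013/1013, 3.48 in WT and 3.39 in +/1013. For 1013/1013 against +/1013, where 0.0428% passed, Prdm16 was again the most negative (-3.27, SE 1.13, adjusted p = 0.377), with the same dependence on the prior count. DESeq2 called Prdm16 in both comparisons (adjusted p = 0.0107 and 0.0286), and limma-voom called none. Over all genes DESeq2 called 1854 and 774 in these 2 comparisons, and edgeR 128 and 8. The WT and 1013/1013 ranges of Prdm16 overlapped in MPP1, in MPP2 and with all subsets pooled. They did not overlap in MPP3 (1.44 to 11.9 CPM in WT, 0.135 to 0.869 in 1013/1013) or in MPP4 (1.10 to 4.79 CPM in WT, 0 in 1013/1013). The median difference of all genes tested between 1013/1013 and WT was -0.17, so values near it are not below the other genes.

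Within subsets, +/1013 libraries could not be distinguished from WT for any member. The share of genes that passed was 0% in each of the subsets MPP1 to MPP4, no member reached an unadjusted p under 0.05, and neither DESeq2 nor limma-voom called one. The SE of the log2 difference was 0.41 for Hlf and 0.32 to 0.33 for Hoxa9 and Meis1, but 1.43 to 1.44 for Mecom, whose changes of severalfold were not detectable. For 1013/1013 against WT, 0.00535% of genes passed in MPP1 and in MPP2, 0% in MPP3 and 0.712% in MPP4. In MPP1, where 46.8% of all genes were negative, the 1013/1013 values of all 7 members were positive, from 0.31 (Meis1) to 1.19 (Prdm16), each with an adjusted p of 1. Hoxa9 in MPP2 was the one member outside MPP4 with an unadjusted p under 0.05 (log2 0.85, SE 0.35, adjusted p = 0.368), with 94.7 and 49.97 CPM in 1013/1013 against 32.8 to 49.2 CPM in WT.

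In MPP4 all 7 members had negative values for 1013/1013 against WT, where 52.9% of all genes were negative, and 3 had an unadjusted p under 0.05, as did 2944 of 18676 genes. Hlf was 54.9 and 34.2 CPM in 1013/1013 against 121, 120 and 116 in WT and 87.5, 139 and 87.2 in +/1013 (log2 -1.42 against WT, SE 0.48, edgeR adjusted p = 0.154). Meis1 was 43.4 and 46.2 CPM against 71.5, 108 and 102 in WT and 73.5, 149.5 and 111 in +/1013 (log2 -1.07, SE 0.38, adjusted p = 0.167). Both 1013/1013 libraries lay below all 6 others of MPP4 for Hlf and for Meis1, and their spread was smaller than the gap. The share of all genes separated in this way was not counted, so it does not set Hlf and Meis1 apart.

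Prdm16 was listed at 0 counts in both 1013/1013 libraries of MPP4, against 1.83, 4.79 and 1.10 CPM in WT and 4.87, 5.88 and 3.80 CPM in +/1013. Against a floor of 3 counts per library this was at least 18.4-fold lower than WT (edgeR adjusted p = 0.156) and 34.7-fold lower than +/1013. That floor covers counting error only. Prdm16 also had no count in MPP1 +/1013 replicate 1 (3.70 and 5.08 CPM in the others of its group), MPP2 1013/1013 replicate 2 (1.34 CPM in the other) and MPP3 +/1013 replicate 3 (0.619 and 3.51 CPM). Mllt3 was 3.16 and 0 CPM against 3.60, 3.28 and 13.2 in WT (log2 -2.10, SE 1.34, adjusted p = 0.435). Hoxa9 was 46.9 and 68.0 CPM against 78.7, 76.8 and 59.2 in WT (log2 -0.32, SE 0.36, adjusted p = 0.702) and overlapped. DESeq2 called Hlf (adjusted p = 0.0225), Meis1 (0.0359) and Prdm16 (0.00388) in this comparison, and limma-voom called none. Over all genes DESeq2 called 2079, limma-voom 363 and edgeR 133. The same 2 libraries had 13093 and 11693 genes with at least 5 counts, against 13972 to 15136 in the other 6 MPP4 libraries, and the part of this in the result was not tested.

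**Figure D3:**
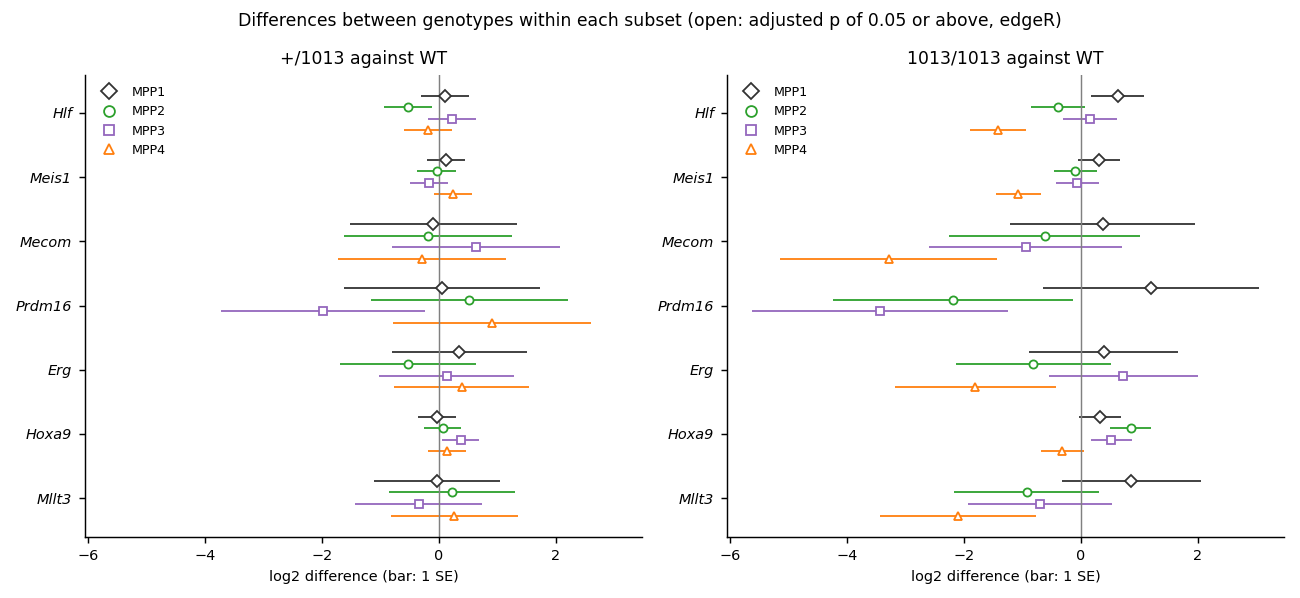
Fitted log2 differences of +/1013 (left) and 1013/1013 (right) against WT within each subset (x axis, bars 1 SE). All symbols are open because no adjusted p was under 0.05, and the MPP4 triangles for 1013/1013 are negative for every member drawn, from -0.32 for Hoxa9 to -3.29 for Mecom. Prdm16 in 1013/1013 MPP4 is not drawn because it had no count.

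Whether the genotype effect in MPP4 differed from that in MPP1 to MPP3 was tested as the MPP4 effect minus the mean of the other 3. For +/1013, 0% of genes passed and the members ran from -0.41 (Mecom) to 1.38 (Prdm16). For 1013/1013, 0.102% passed, all 7 members were negative, as were 55.1% of all genes, and none passed the adjustment. At an unadjusted p under 0.05 there were 4 members and 1536 of 18676 genes. Hlf had -1.54 (SE 0.55, edgeR adjusted p = 0.402) and Meis1 -1.12 (SE 0.43, adjusted p = 0.47). DESeq2 and limma-voom called no member in either. The 1013/1013 values in MPP4 were thus not shown to differ from those in the other subsets.

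Other genes of the same network were counted from lists chosen with earlier results known. Of 20 partner regulators, 10 were lower and none higher in MPP4 than in MPP1, as the mean over genotypes, where 7.12% of all genes were lower, with a median log2 difference of -2.04 beside -0.15 over all genes. Tal1, which nucleates a stem and erythroid regulator complex, averaged 18.7 CPM (SD 8.39) in MPP4 and 83.5 (SD 19.9) in MPP1 (log2 -2.24, SE 0.24, edgeR adjusted p = 1.35e-06). Gata2, a zinc-finger factor of stem cells, fell from 177 to 18.8 CPM (log2 -3.45, adjusted p = 3.58e-06). Gfi1b, which encodes a repressor that acts in the erythroid and megakaryocyte lineages, had a log2 difference of -2.73 (adjusted p = 2.72e-05) and Myct1 one of -1.44 (adjusted p = 0.000114). These 4 were also lower over WT and +/1013 alone, where the list's count was 4 of 20 and 1.29% of all genes were lower.

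The counts of the next lists stand beside 7.12% of all genes lower (1329 of 18676) and 1418 genes higher in MPP4 than in MPP1. Of 11 tested HOXA and HOXB genes other than Hoxa9, Hoxb5 and Hoxb6 were lower. Both were scarce, Hoxb5 with means of 0.124 CPM in MPP4 and 4.30 in MPP1, and Hoxb6 with 0.0141 and 0.576 CPM. Of 13 close relatives of the members, Mllt1, the sister of Mllt3, was lower (log2 -3.17, adjusted p = 0.00259), as was Ets2, an ETS factor (log2 -1.75, adjusted p = 0.0414). Among 12 genes listed for the MLL, DOT1L and elongation machinery, Mllt1, Kmt2a, which encodes the MLL methyltransferase (log2 -4.51, adjusted p = 0.00305), and Psip1 were lower. Kmt2a averaged 2.15 CPM (SD 2.71) in MPP4, where its lowest value was 0, and 7.49 CPM (SD 3.64) in MPP1, a smaller gap than its fitted value. Cdk9, the elongation kinase, was higher (log2 0.42, adjusted p = 0.0435). Over WT and +/1013 alone, none of these 3 lists had a member past the threshold.

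Genes reported as targets of HOXA9 and MEIS1 were called in both directions between MPP4 and MPP1, as the mean over genotypes. Of 14, Flt3 (log2 4.09), Cd34 (log2 1.51) and Id2 (log2 1.98, adjusted p = 0.0115) were higher and Kit was lower (log2 -1.62, adjusted p = 0.00632). Over WT and +/1013 alone 2 were higher, Flt3 and Cd34, and 0 lower. Flt3, Cd34 and Kit encode proteins used to sort progenitors, and the part of the gates in their direction was not tested. Of 19 tested lineage factors, Irf8 (log2 5.13, adjusted p = 0.000292), Cebpa and Irf4, which act in myeloid and lymphoid cells, were higher, and Zfpm1 and Gata1 of the erythroid and megakaryocyte lineages were lower. Over WT and +/1013 alone Cebpa, Irf8 and Spi1 were higher and 0 lineage factors lower. Summed megakaryocyte markers were 314 to 523 CPM in MPP1 and 16.9 to 67.5 CPM in MPP4, with all 7 markers having counts in at least 17 of 32 libraries. The part of this shift in the members' differences was not tested. No listed partner, relative, target or lineage gene passed between 1013/1013 and WT in MPP4 or as the mean over subsets. Of the megakaryocyte markers, Itga2b, the integrin CD41, was lower in 1013/1013 than in WT MPP4, at 0.333 CPM (SD 0.471, n = 2) against 11.4 CPM (SD 4.796, n = 3; log2 -5.24, SE 1.19, edgeR adjusted p = 0.0387), and its part in the members' lower values there was not tested.

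Across the 32 libraries the members did not vary as a block. Pearson correlations of log2 CPM were 0.75 between Mecom and Meis1, 0.72 between Mecom and Erg and 0.69 between Meis1 and Mllt3, and -0.15 between Meis1 and Hoxa9. After each group's mean was removed, Erg and Meis1 (0.73), Erg and Mecom (0.70), Hlf and Mllt3 (0.68) and Mecom and Meis1 (0.65) still varied together, and Meis1 and Mllt3 did not (0.07). These values describe libraries that share subset, depth and amplification. Within groups, the number of genes with at least 5 counts had a correlation of 0.72 with Meis1, 0.64 with Mecom and 0.62 with Erg on the log2(CPM + 1) scale, but 0.31 with Hlf and -0.03 with Mllt3.

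**Figure D4:**
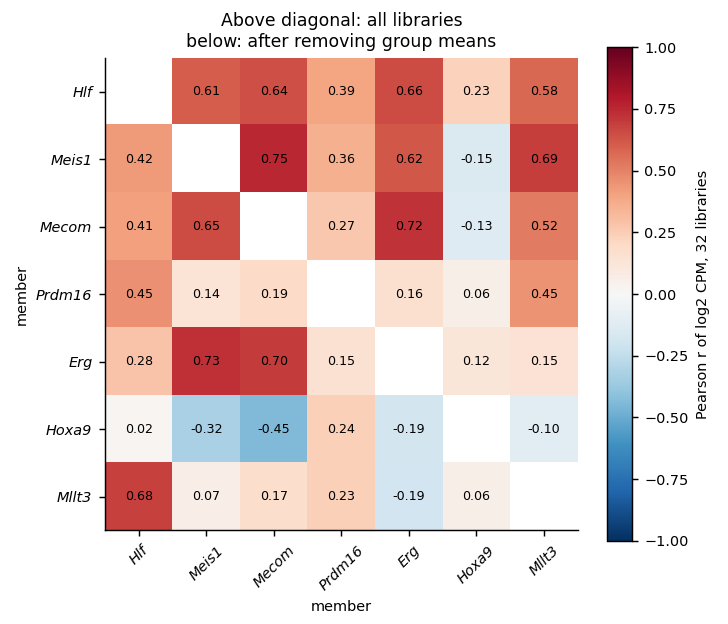
Pearson correlation of log2 CPM over 32 libraries between members, above the diagonal over all libraries and below it after subtracting group means, with colour from -1 to 1. Meis1, Mecom and Erg keep values of 0.65 to 0.73 below the diagonal, Hlf and Mllt3 keep 0.68, and Hoxa9 is at 0.24 or lower with every other member on both sides.

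The genes whose levels ran most nearly alongside each member over the 32 libraries were found among those averaging at least 5 CPM. For Meis1 they were Klf9 (r = 0.93), Gfi1b (0.88) and Ptgs1 (0.87). For Mllt3 they were Cish (0.89), Anxa5 and Trim47, and for Hlf Serpina3f (0.85), Serpinf1 and Fam107b. Mecom ran with Ice2 (0.87), Srek1 and Arhgap45, and Erg with Ogfr (0.89), Kat2a and Usp19. Prdm16 (Mkrn1, 0.70) and Hoxa9 (Mb21d2, 0.62) had the weakest best matches. None of these correlations was tested. The strand setting of the counting is not given in the sources used here, so reads of a gene and its antisense partner cannot be told apart. Over all libraries the antisense Mecomos held 56 counts beside 12846 for Mecom, and Gm16140, antisense to Meis1, held 173 beside 125584.

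Sorted by group mean, the 12 groups of each member formed a nearly continuous order. Of 11 neighbouring pairs, 11 overlapped in range for Mecom, Hoxa9 and Erg, 10 for Hlf and Prdm16 and 9 for Meis1 and Mllt3. These counts were not made over all genes, so they do not set the members apart. The steps without overlap were MPP1 1013/1013 above the next group for Hlf (236 against 164 CPM) and Mllt3 (90.6 against 49.9 CPM), MPP1 WT above MPP2 WT for Meis1 (196 against 146 CPM), and MPP4 1013/1013 below the next group for Meis1 (44.8 against 94.1 CPM), Mllt3 (1.58 against 6.69 CPM) and Prdm16. So 1013/1013 held the top mean of 6 members in MPP1 and the bottom mean of the same 6 in MPP4, all but Hoxa9, from 2 libraries each. The share of all genes with this pattern was not counted, so it cannot be called particular to the members.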

How the data were processed

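The deposited values are raw counts per gene in 32 libraries, and the authors aligned reads to mm10 with STAR and counted them with HTSeq, per the submitters' processing notes; versions and the strand setting are not given in the sources used here. The cDNA was made with SMART-Seq v4 and libraries with Nextera XT, per the labels' protocols. 64 further per-sample columns of the table were not used. Libraries held 13016038 to 37050983 counts, and intervals or floors (3 counts per library) cover counting error only.

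Counts were filtered with filterByExpr over the 12 groups (18676 of 30644 genes kept), scaled by TMM and tested with edgeR 4.0.16 in R 4.3.3 (trended dispersion, quasi-likelihood F test, 1 coefficient per group, 20 residual degrees of freedom). P-values were adjusted by Benjamini-Hochberg over all genes tested, with a threshold of 0.05, and SE is the log2 difference divided by the root of F. The test was tried on simulated data first. DESeq2 1.42.0, limma 3.58.1 (voom) and other settings were alternatives. CPM per kilobase used the deposited median transcript length. All 7 members are named, with genes of the lists that passed and the 3 genes most like each member. Members and lists were chosen with earlier results of these data known. Results for 1 list are not reported here.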

Additional observations from a re-analysis of the deposited data

How the results depend on the processing

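Over 91 member results, 952 values under other settings held 885 that kept their side of the threshold, 26 that lost a call and 41 that gained one, and no called value changed sign. Lower members in MPP4 against MPP1 (4) became 2 without the 8 libraries and 1 over WT and +/1013 only, and 3 to 5 with a library left out. For MPP2 against MPP1 (1) the count was 4 in DESeq2 and limma-voom, among 3056 and 2379 genes called, beside 1256 in the main fit. It was 3 with edgeR's default dispersion, among 1988 genes. It was 0 without the 8 libraries, with only the groups compared or over WT and +/1013 only. With a library left out it was 1 to 3. For MPP3 against MPP1 (0) it was 3 in DESeq2, limma-voom and the default dispersion, 2 with only the groups compared, 1 with RLE size factors and 0 to 1 with a library left out. MPP4 against MPP2 (2) gave 1 in limma-voom and over WT and +/1013 only, 0 with only the groups compared and 0 to 2 with a library left out. MPP3 against MPP2 (0) gave 1 in DESeq2 and limma-voom, MPP4 against MPP3 (0) gave 1 in DESeq2 and with only the groups compared, and both gave 0 to 1 with a library left out. MPP4 against MPP1 in 1013/1013 (4) gave 2 with only the groups compared, 1 without the 8 libraries and 1 to 4 with a library left out. MPP2 against MPP1 in 1013/1013 (0) gave 1 in DESeq2, limma-voom, RLE and the default dispersion, and 0 to 1 with a library left out. DESeq2 gave 1 for MPP2 against MPP1 in +/1013, MPP4 against MPP1 in WT and 1013/1013 against WT or +/1013 over subsets, 2 for 1013/1013 minus WT and 3 for 1013/1013 against WT in MPP4, each 0 in edgeR. With a library left out, MPP4 against MPP1 in WT, 1013/1013 minus WT and 1013/1013 against WT in MPP4 gave 0 to 1. Over all genes DESeq2 called 2079 in that last comparison and edgeR 133. The cause was not tested.

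Same-numbered libraries of different groups had a correlation over 0.1 in 71 of 160 pairs (median 0.077), against 47 of 308 differently numbered pairs (median -0.033). Same-numbered libraries thus deviated together more often, but not in every pair, and the labels name no shared source, so the numbers were not taken as pairs. With the replicate block, the counts were 2 for MPP2 against MPP1, 2 for MPP3 against MPP1 and 1 for MPP2 against MPP1 in 1013/1013, and 3 instead of 4 for MPP4 against MPP1 in 1013/1013, where Prdm16 lost its call (adjusted p = 0.0529). Prdm16, Erg and Mecom, low or scattered, had the widest errors.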
